A study of Homo sapiens with 16 samples.

Results

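Broad H3K4me3 peaks are stretches in which trimethylation of lysine 4 on histone H3 runs far past a promoter. They were chosen by their width in cells that express wild type NSD2: every peak of that form's deposited H3K4me3 list whose end minus start was at least 6 kb. This rule took 587 of the 8140 peaks of the wild type list, or 7.21%, and they held 15.7% of its covered bases. The 4 H3K4me3 lists together held 31487 peaks.

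The cells were TKO cells, a derivative of the multiple myeloma line KMS-11 that the labels describe as plasma cells with the genotype KMS-11 WHSC1(+/-). WHSC1 is an older name of NSD2, a methyltransferase of lysine 36 on histone H3, and KMS-11 is known for a translocation that places this gene under immunoglobulin control. The forms compared were wild type NSD2 (WT), the D1240A mutant and the F1295A mutant, each expressed in TKO cells, and plain TKO, whose labels name no added form. Every group shared that genotype, and the labels do not say which vector or promoter drove the added forms, or whether a form was 1 clone. Each form had 1 H3K4me3 sample, 2 H3K27me3 samples and 1 IgG sample. Chromatin was profiled by ChIPmentation, a form of ChIP-seq that builds the library on the beads with Tn5 transposase. With 1 H3K4me3 library per form, no difference between forms had a replicate check, and no p-value is given.

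H3K4me3 is laid down by SET1 and MLL methyltransferase complexes at the promoters of active and poised genes, and most genes carry a peak of a few nucleosomes around the start. A small share of genes carries the mark over many kilobases, mainly into the gene body, and in many cell types these broad domains cover genes of the cell's own identity, tumour suppressors and genes read at high and steady rates. In plasma cells the genes of identity include IRF4, PRDM1 and XBP1, the transcription factors that close the B cell programme and expand the secretory apparatus. Markers fixed for the check of the label gave H3K4me3 at 7 of 8 plasma cell markers in WT, 5 in TKO, 6 in D1240A and 7 in F1295A. Of 6 B cell markers only CIITA counted as marked, and of 6 T and NK cell markers only BCL11B, both in all 4 lists. The CIITA peak also held DEXI and CLEC16A. A record end can stand in for a start, so this peak need not mark the CIITA promoter. Of 6 myeloid markers only CEBPA had a peak, in every list but TKO, and none of the 4 stromal markers had one in any list. SLAMF7 was the plasma cell marker without a peak in any list, SDC1 (CD138) had none in TKO and D1240A, and POU2AF1 had none in TKO.

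The sequences below are the 250 bases before the start of 5 genes whose broad peaks the results turn on, from the RefSeq promoter table of GRCh38.p14, with every CG dinucleotide in capitals. PRDM1 and IRF4 stand for plasma cell genes whose breadth was kept in all 4 lists, ZNF217 had the widest WT peak, EFNA3 had no H3K4me3 peak in either mutant, and FGFR3 had one only in WT and F1295A.
PRDM1, plus strand, chr6:106086086-106086335: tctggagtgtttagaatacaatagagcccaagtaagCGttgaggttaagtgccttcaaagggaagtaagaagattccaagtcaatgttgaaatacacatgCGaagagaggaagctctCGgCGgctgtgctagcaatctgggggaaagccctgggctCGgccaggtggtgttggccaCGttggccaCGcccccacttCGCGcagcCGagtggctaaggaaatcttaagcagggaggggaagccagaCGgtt
IRF4, plus strand, chr6:391502-391751: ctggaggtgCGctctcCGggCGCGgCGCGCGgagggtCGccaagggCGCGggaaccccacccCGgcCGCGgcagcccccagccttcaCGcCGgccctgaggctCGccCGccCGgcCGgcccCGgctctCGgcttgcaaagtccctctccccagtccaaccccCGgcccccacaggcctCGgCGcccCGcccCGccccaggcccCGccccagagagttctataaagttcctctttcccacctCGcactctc
ZNF217, minus strand, chr20:53593840-53594089: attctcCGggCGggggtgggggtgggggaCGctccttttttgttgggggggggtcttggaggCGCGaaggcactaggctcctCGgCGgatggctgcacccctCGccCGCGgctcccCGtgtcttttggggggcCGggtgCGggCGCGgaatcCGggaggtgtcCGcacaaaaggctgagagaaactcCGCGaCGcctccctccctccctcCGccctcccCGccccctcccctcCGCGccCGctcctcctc
EFNA3, plus strand, chr1:155078587-155078836: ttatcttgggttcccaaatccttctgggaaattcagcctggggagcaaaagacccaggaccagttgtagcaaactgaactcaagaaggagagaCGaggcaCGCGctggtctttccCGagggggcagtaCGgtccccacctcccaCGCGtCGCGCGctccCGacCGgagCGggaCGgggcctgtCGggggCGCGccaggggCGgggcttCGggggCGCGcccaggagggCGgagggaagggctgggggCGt
FGFR3, plus strand, chr4:1793043-1793292: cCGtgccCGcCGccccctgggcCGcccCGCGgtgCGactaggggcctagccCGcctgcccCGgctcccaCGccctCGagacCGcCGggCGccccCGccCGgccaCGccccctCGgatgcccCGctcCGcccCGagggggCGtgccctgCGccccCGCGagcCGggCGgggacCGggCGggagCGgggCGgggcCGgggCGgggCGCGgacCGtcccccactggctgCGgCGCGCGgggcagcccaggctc
The PRDM1 stretch holds 11 CG dinucleotides and 53.6% G and C, and it is the poorest of the 5. ZNF217 has 25 CG and 72.4% G and C, EFNA3 23 and 67.6%, and IRF4 28 and 76.0%. FGFR3, with 40 CG and 86.8% G and C, is the richest. A TATAAA word lies 32 to 27 bases before the IRF4 start, and none is in the other 4 stretches. The GC box core GGGCGG, on either strand, occurs 8 times in the FGFR3 stretch, 4 times in that of IRF4, 3 times in that of ZNF217, 2 times in that of EFNA3 and not in that of PRDM1.

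The 4 H3K4me3 lists differed in breadth as a whole. Median peak width was 2704.5 bp in TKO (7396 peaks), 3293 bp in WT (8140), 3352.5 bp in D1240A (7712) and 3701 bp in F1295A (8239). Signal followed the same order at its ends: the median highest signal of a peak was 215 in TKO, 413 in D1240A, 430 in WT and 494 in F1295A. Peaks of at least 6 kb numbered 191 in TKO (2.58% of the list), 587 in WT, 608 in D1240A (7.88%) and 996 in F1295A (12.1%). The list with the lowest signal also had the narrowest peaks, and the list with the highest signal the widest. Read depth is unknown. How much of each width difference below goes with signal was not tested.

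Among the 587 broad WT peaks, width ran from 6007 to 25732 bp with a median of 7284 bp. Most lay near the limit: 244 were 6 to 7 kb wide, 140 were 7 to 8 kb, 119 were 8 to 10 kb, 67 were 10 to 15 kb and 17 were wider than that. Just inside the limit stood the peaks at HNRNPDL and ENOPH1 (6007 bp), RCSD1 (6008 bp) and DNAJC14 (6012 bp), and just outside it those at LAMA5 (5998 bp), INO80B and WBP1 (5995 bp) and RBM39 (5994 bp). Total signal, the sum over a peak, placed the broad peaks at a median percentile of 92.2 within the WT list, with quartiles at 80.0 and 97.2. Signal per base put their median at the 59.1 percentile only, so they ranked high in sum more than in density. Not all were strong: 39 of the 587 lay under the median total signal of the WT list, with a median percentile of 0.516 for signal per base. These were wide and faint.

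The widest peak, 25.7 kb, lay over ZNF217 (chr20:53573660-53599391), a zinc finger gene amplified in several carcinomas. Its matching peak was 11.2 kb in TKO, 24.6 kb in D1240A and 25.4 kb in F1295A. PRDM1, which encodes the repressor Blimp-1, had the second widest (chr6:106083483-106108002), with 24.5 kb in WT, 22.6 kb in TKO, 24.0 kb in D1240A and 23.6 kb in F1295A. The PRDM1 peak thus differed little between the lists. That of ZNF217 was shorter in TKO alone, where it was called as 2 peaks that covered 69.6% of its bases. A histone cluster with H2BC11, H2AC11, H4C9, H2BC12 and H2AC12 (chr6:27126178-27148868) was covered by 1 peak of 22.7 kb in WT. There the widest matching peak was 9.88 kb in TKO, 12.6 kb in D1240A and 10.8 kb in F1295A, although 82.0%, 97.5% and 89.7% of the bases stayed covered, since the stretch was called as more than 1 peak. CDK14, a cyclin-dependent kinase gene, had 22.7 kb in WT, 6.73 kb in TKO, 12.4 kb in D1240A and 14.9 kb in F1295A. Each mutant had 2 peaks there, and 29.6%, 80.0% and 89.9% were covered in TKO, D1240A and F1295A. NR2F2, an orphan nuclear receptor gene, had 17.8 kb, 8.49 kb, 18.3 kb and 14.1 kb in WT, TKO, D1240A and F1295A. At NR2F2 TKO had 3 peaks and F1295A 2, which covered 80.8% and 93.3%. Of the 17 peaks over 15 kb, 13 were still at least 6 kb wide in TKO, 15 in D1240A and 16 in F1295A.

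Followed into the other lists, 185 of the 587 lay under a peak of at least 6 kb in TKO (31.5%, exact 95% interval 27.8 to 35.4%), 427 in D1240A (72.7%, 68.9 to 76.3%) and 508 in F1295A (86.5%, 83.5 to 89.2%). Over all WT peaks the same shares were 2.33%, 7.63% and 12.9%. Since WT width chose the peaks, their being narrower elsewhere is a description only. TKO peaks covered a median 71.0% of the bases of a broad WT peak, D1240A peaks 93.2% and F1295A peaks 97.9%, against 78.8%, 93.8% and 99.0% over all WT peaks. In 232 of the 587 the covered length in TKO was at least 1.5 times shorter than in WT, peaks without any match included, and the same held for 45 in D1240A and 23 in F1295A. Over all WT peaks those shares were 25.5%, 7.79% and 2.65%, and here they were 39.5%, 7.67% and 3.92%. No peak at all was found at 17 of the 587 in TKO, 12 in D1240A and 4 in F1295A, or 2.90%, 2.04% and 0.681%, where all WT peaks gave 10.9%, 5.84% and 1.7%. Broad peaks were thus rarely absent elsewhere, and in TKO they were mostly shorter. They were called as more than 1 peak at 59 positions in TKO (10.1%), 21 in D1240A (3.58%) and 11 in F1295A (1.87%), against 0.848%, 0.332% and 0.160% of all WT peaks.

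**Figure D1:**
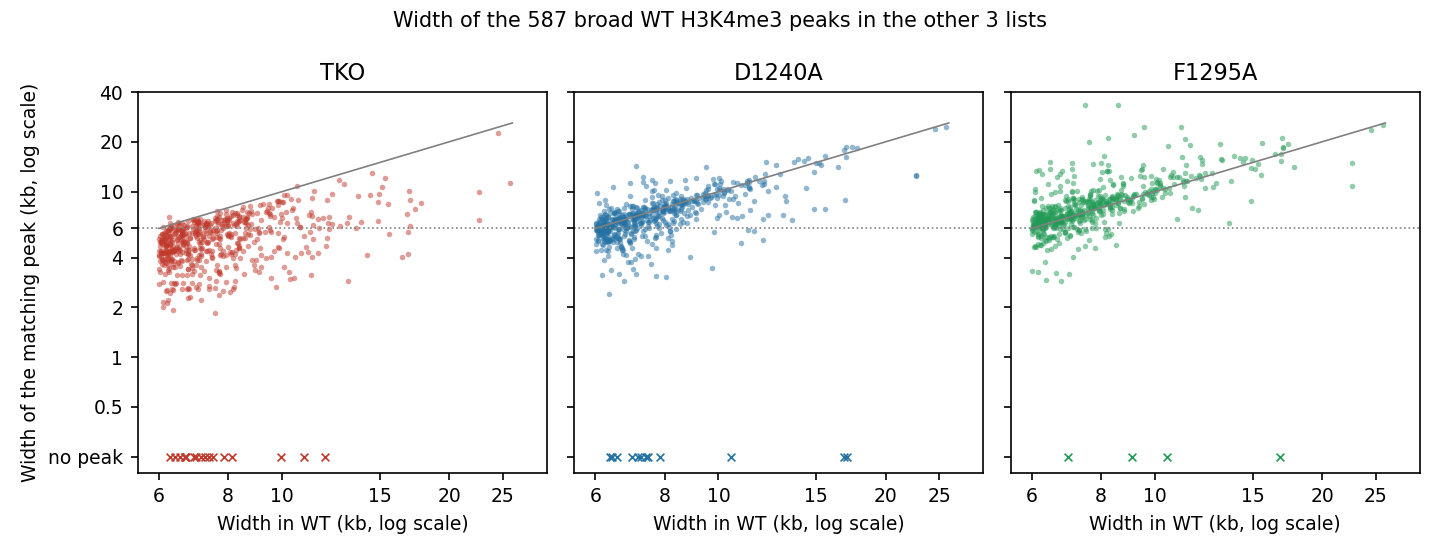
Width of each broad WT H3K4me3 peak in WT (x axis, kb, log scale) against the width of the peak that shares most bases with it in TKO, D1240A and F1295A (y axis, kb, log scale), with crosses for no peak, a solid line at equal width and a dotted line at 6 kb. In TKO nearly all points lie under the line of equal width, with 185 of 587 at or above 6 kb, while D1240A has 427 and F1295A 508 there.

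**Figure D2:**
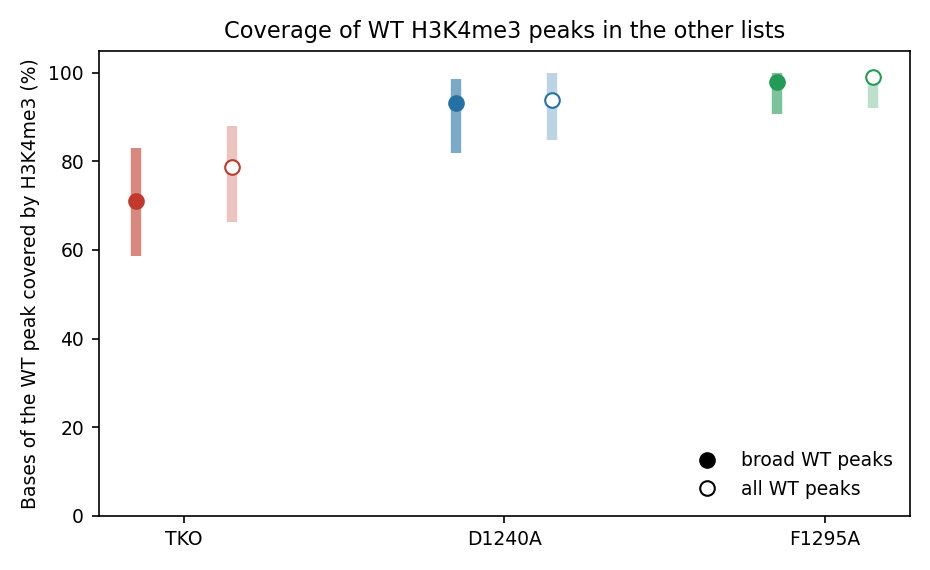
Percent of the bases of WT H3K4me3 peaks covered by peaks of TKO, D1240A and F1295A, with circles at the median and bars from the lower to the upper quartile, for the 587 broad peaks (filled) and all 8140 WT peaks (open). The median is 71.0% for the broad peaks and 78.8% for all in TKO, and the pairs lie closer in D1240A and F1295A.

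The comparison among TKO, D1240A and F1295A used lists that had no part in the choice. D1240A covered more of the broad peak than TKO at 536 of the 565 with a peak in both, or 94.9%, by a median of 1.22 times (exact interval 1.19 to 1.24), and at least 1.5 times more at 111, or 19.6%. Over all WT peaks D1240A covered more at 88.8%, the median was 1.13 times, and 6.62% reached 1.5 times. F1295A covered at least 1.5 times more than TKO at 150 of 567, or 26.5%, against 9.91% of all WT peaks, with a median of 1.28 times (1.25 to 1.32) against 1.18 times. The opposite, at least 1.5 times more in TKO, was found at 0 of the 565 against D1240A and 0 of the 567 against F1295A, and over all WT peaks at 0.014% and 0%. Between the mutants the median ratio was 1.02 in favour of F1295A (all WT peaks 1.01), with 14 of 574 (2.44%, all WT peaks 0.773%) at least 1.5 times more covered in F1295A and 2 (0.348%, all WT peaks 0.105%) in D1240A. TKO had the lowest coverage at 539 of the 587 (91.8%), and at 82.5% of all WT peaks. The part of WT width and of list signal in these ratios was not tested. By WT signal per base, median coverage in TKO was higher with each step through the 4 groups between quartiles, from 57.5% in the lowest to 69.6%, 73.1% and 79.2% in the highest. In D1240A the same groups gave 90.6%, 94.6%, 92.5% and 94.5%, and in F1295A 97.9%, 97.7%, 97.3% and 99.2%, with no steady order.

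In the pattern over the lists, 178 broad WT peaks were at least 6 kb wide in all of the other 3, 225 in both mutants and not in TKO, 101 in F1295A alone, 22 in D1240A alone and 54 in none. A TKO peak of that width without one in both mutants was found at 7. The pattern was not counted over all WT peaks. Of these, 2.33% lay under a peak of at least 6 kb in TKO, 7.63% in D1240A and 12.9% in F1295A. Across the broad peaks, widths in D1240A and F1295A followed each other more closely (Spearman correlation 0.68, n = 574) than those in TKO and D1240A (0.54, n = 565) or TKO and F1295A (0.39, n = 567). These points share their libraries and are given as a description.

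Within each list the broad WT peaks kept a high rank. Their matching peaks stood at a median total signal percentile of 90.3 in TKO, 91.6 in D1240A and 93.1 in F1295A, and at a median width percentile of 95.5, 95.5 and 94.9. A peak that was shorter in TKO than in WT was therefore usually still among the widest of the TKO list. When the 587 widest peaks of each list replaced the 6 kb limit, which put the limit at 4.57 kb in TKO, 6.05 kb in D1240A and 7.01 kb in F1295A, the shares became 62.5% in TKO, 71.0% in D1240A and 64.1% in F1295A. By value TKO was still the lowest, and F1295A was no longer the highest. The exact intervals were 58.5 to 66.5% in TKO and 67.2 to 74.7% in D1240A. They cover counting error over peaks only, and no form had replicate H3K4me3 libraries. These intervals therefore cannot show whether the forms differ.

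The choice was also turned around. Of the 191 TKO peaks of at least 6 kb, 187 (97.9%) lay on a broad WT peak. Of the 608 broad D1240A peaks, 430 (70.7%) did so, and of the 996 broad F1295A peaks 507 (50.9%). None of the TKO set, 4 of the D1240A set and 18 of the F1295A set had no WT peak at all.

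Broad peaks held a protein-coding start slightly less often than narrower WT peaks. A protein-coding start, or a record end where the table gives no start, was inside 516 of the 587 (87.9%, exact interval 84.99 to 90.43%) and 91.1% of the narrower WT peaks (90.5 to 91.7%). Such a start was inside 23 of the 39 broad peaks under the median total signal of the WT list (59.0%). It was inside 493 of the other 548 (90.0%), close to the share of the narrower peaks. Of the 587 broad peaks, the start or end of an RNA gene was inside another 33. A further 21 lay inside a protein-coding record and 17 outside any. In all, 709 of the 8658 protein-coding genes with a start in a WT peak had it in a broad one, or 8.19%. Of the broad peaks 26.4% held starts of at least 2 protein-coding genes, against 15.9% of the narrower WT peaks. Per kilobase the order turned, with 0.150 genes in broad and 0.319 in narrower peaks. The site of highest signal lay within 500 bp of a start in 57.8% of the broad and 79.5% of the narrower peaks.

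Plasma cell identity genes had the highest share of the 13 gene lists. Of 19 with H3K4me3 in WT, 11 lay in a broad peak (57.9%), where all marked genes gave 8.19%. IRF4, which drives plasma cell fate and myeloma survival, had 11.4 kb in WT, 10.1 kb in TKO, 10.3 kb in D1240A and 11.5 kb in F1295A. Its width was near equal in all 4 lists, as was that of PRDM1. XBP1, the factor that expands the secretory apparatus, had 8.70 kb, 6.27 kb, 11.7 kb and 10.2 kb in WT, TKO, D1240A and F1295A. MZB1, an endoplasmic reticulum protein of antibody assembly, had 11.3 kb in WT, 11.4 kb in D1240A and 13.02 kb in F1295A. In TKO the stretch held 2 peaks that covered 63.7% of it. The TKO peak at the MZB1 start was 3.19 kb wide, and the peak sharing most bases 4.04 kb. IKZF1, which encodes Ikaros, had 11.8 kb, 6.97 kb, 11.6 kb and 12.1 kb, and JCHAIN, the joining chain of polymeric antibodies, 9.69 kb, 7.04 kb, 9.30 kb and 9.73 kb, in the order WT, TKO, D1240A and F1295A. TNFRSF17, which encodes the plasma cell receptor BCMA, had 8.89 kb, 4.93 kb, 7.21 kb and 9.06 kb. The other members were CD28, MEF2C, TENT5C and IKZF3, each 6.60 to 7.75 kb in WT and 4.17 to 5.90 kb in TKO. In TKO 5 of the 11 were at least 6 kb wide, in D1240A 10 and in F1295A 11, with median coverage of 72.7%, 95.5% and 99.9%, near the 71.0%, 93.2% and 97.9% of all 587. The peaks at the starts of TENT5C and IKZF3 were faint for their width, at the 35.0 and 37.7 percentiles of total signal in WT. Another broad WT peak, of 10.97 kb at the 21.9 percentile, lay inside IKZF3 without a gene start. It had no match in TKO and was 4.87 kb in D1240A and 6.86 kb in F1295A. That peak is not among the 11.

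**Figure D3:**
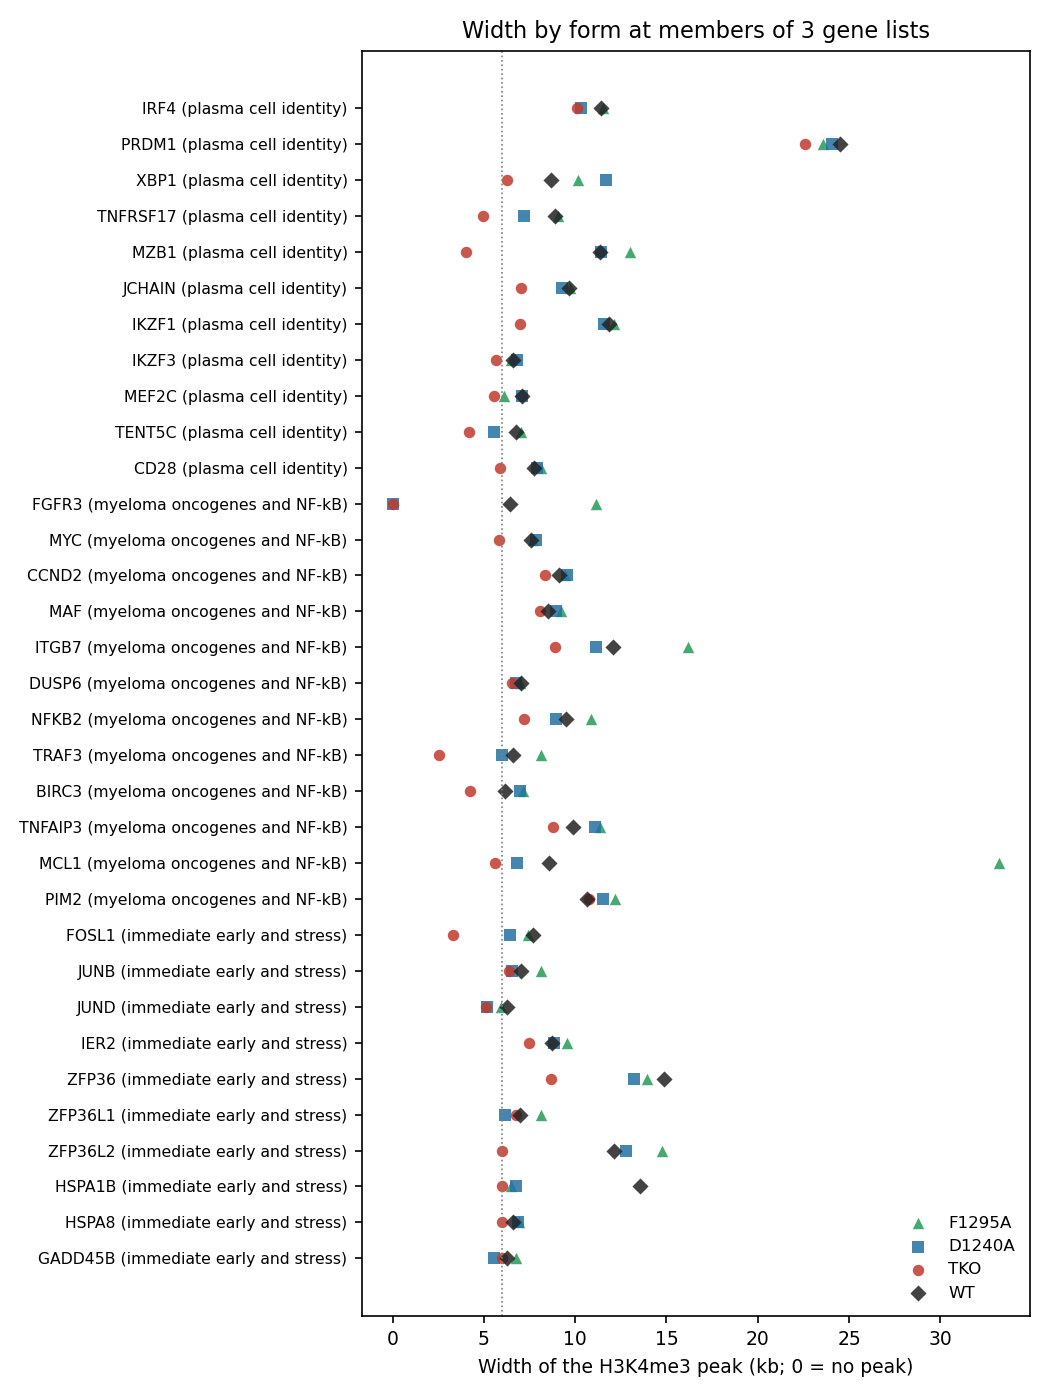
Width of the H3K4me3 peak (x axis, kb) in WT (diamonds), TKO (circles), D1240A (squares) and F1295A (triangles) at the genes of 3 lists that lie in a broad WT peak, with 0 for no peak and a dotted line at 6 kb. IRF4, PRDM1, MAF and PIM2 have near equal widths, while F1295A is the widest at MCL1 (33.2 kb). TKO is the narrowest at MZB1, where the TKO peak that shares most bases, drawn here, is 4.04 kb wide.

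Myeloma oncogenes and genes of NF-kB signalling had 12 of 29 marked genes in a broad peak (41.4%). PIM2, a survival kinase gene on chromosome X whose peak also holds SLC35A2, had 10.6 kb in WT, 10.8 kb in TKO, 11.5 kb in D1240A and 12.2 kb in F1295A, and was 1 of 5 broad peaks with a wider match in TKO than in WT. CCND2, the D-type cyclin, had 9.12 kb, 8.32 kb, 9.56 kb and 9.45 kb, and MAF, a transcription factor of another myeloma translocation, 8.52 kb, 8.10 kb, 8.97 kb and 9.20 kb, both in the order WT, TKO, D1240A and F1295A. ITGB7, an integrin gene that MAF is known to activate, had 12.1 kb in WT, 8.88 kb in TKO, 11.1 kb in D1240A and 16.2 kb in F1295A. TNFAIP3 (9.87 kb in WT), NFKB2 (9.50 kb) and BIRC3 (6.13 kb), targets and regulators of NF-kB, had 8.77, 7.17 and 4.23 kb in TKO. TRAF3, an inhibitor of the pathway, had 6.62 kb in WT, 2.56 kb in TKO, 5.98 kb in D1240A and 8.15 kb in F1295A. MYC had 7.60 kb, 5.82 kb, 7.85 kb and 7.67 kb in the order WT, TKO, D1240A and F1295A. Of the 12, 7 stayed at 6 kb or more in TKO, 10 in D1240A and 12 in F1295A.

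Histone genes, a list of core histones with the linker H1-4 and the variant H2AZ1, lay in 7 broad peaks that held 15 of the 28 marked (53.6%). Their coverage was high, with medians of 82.0% in TKO, 97.5% in D1240A and 99.2% in F1295A. These genes are near-identical copies that lie close together, so how reads were shared among them is uncertain. Immediate early and stress genes had 10 of 26 in a broad peak, with the highest median coverage in TKO of the lists with more than 1 member, 83.5%. The stress peak at HSPA1B, a heat shock protein gene with a near-identical neighbour, was 13.6 kb in WT, 6.02 kb in TKO, 6.75 kb in D1240A and 6.50 kb in F1295A. TKO, D1240A and F1295A each had 2 peaks there, and 79.2%, 82.8% and 91.3% of the stretch stayed covered. IER2 had 8.71 kb, 7.46 kb, 8.82 kb and 9.53 kb, and ZFP36, which encodes a protein that destabilises cytokine messages, 14.9 kb, 8.70 kb, 13.2 kb and 13.9 kb, both in the order WT, TKO, D1240A and F1295A.

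Cell cycle genes had 8 of 24 in a broad peak and had the lowest median coverage in TKO of the 13 gene lists, 63.8%, with 2 of 8 at 6 kb or more. The inhibitor CDKN2C, often deleted in myeloma, had 16.9 kb in WT, 5.70 kb in TKO, 17.9 kb in D1240A and 16.9 kb in F1295A. At CDKN2C 2 TKO peaks covered 56.1% of the stretch, and at CDKN1B 2 covered 75.5%. CDKN1B had 13.9 kb, 6.52 kb, 15.7 kb and 16.5 kb, and CDKN2A 11.03 kb, 4.62 kb, 7.15 kb and 12.3 kb, in the order WT, TKO, D1240A and F1295A. CDK6, a partner of the D-type cyclins, differed less between the lists, with 9.03 kb, 7.44 kb, 8.78 kb and 8.91 kb. Chromatin regulators had 12 of 46, of which 2 stayed at 6 kb in TKO, 9 in D1240A and 12 in F1295A. The 2 were BMI1, a Polycomb subunit gene (15.3 kb in WT and 12.1 kb in TKO), and BRD2, a bromodomain gene (9.82 kb and 8.76 kb). ARID1A, a chromatin remodelling subunit gene, had 11.2 kb in WT and 5.69 kb in TKO. Developmental factors had 8 of 27, and 6 of these 8 stayed at 6 kb in TKO, among them MEIS1 (9.23 kb in WT and 8.45 kb in TKO), RUNX2 (8.81 and 7.33 kb) and RUNX3 (7.80 and 6.36 kb).

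Genes of the secretory pathway and the unfolded protein response had 6 of 27 in a broad peak, with HSPA5, the chaperone BiP, at 6.36 kb in WT, 4.38 kb in TKO, 6.35 kb in D1240A and 7.96 kb in F1295A. Housekeeping genes had 5 of 19 (GAPDH, TUBB, EEF1A1, EEF2 and ENO1) and ribosomal protein genes 5 of 33. Cell adhesion and matrix genes, the subject named in the series title, had 3 of 28 marked genes in a broad peak (10.7%), near the 8.19% of all marked genes. They were ITGB7, ITGB8, an integrin of the TGF-beta system (6.13 kb, 5.08 kb, 6.46 kb and 6.89 kb in WT, TKO, D1240A and F1295A), and SELPLG, the selectin ligand of leukocytes. SELPLG had 8.13 kb in WT, no peak in TKO, 6.08 kb in D1240A and 5.92 kb in F1295A, at the 8.61 percentile of total signal in WT. Of the B cell programme, CIITA and BCL11A lay in a broad peak (2 of 5 marked), and of the T, NK and myeloid markers BCL11B (1 of 2). The CIITA peak is the peak shared with DEXI and CLEC16A, and it may not lie at the CIITA start. All 13 lists lay above the share of all marked genes, so a share above 8.19% does not by itself set a list apart. The lists hold well-studied genes, and a share over so few genes moves by several percent with 1 gene.

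**Figure D4:**
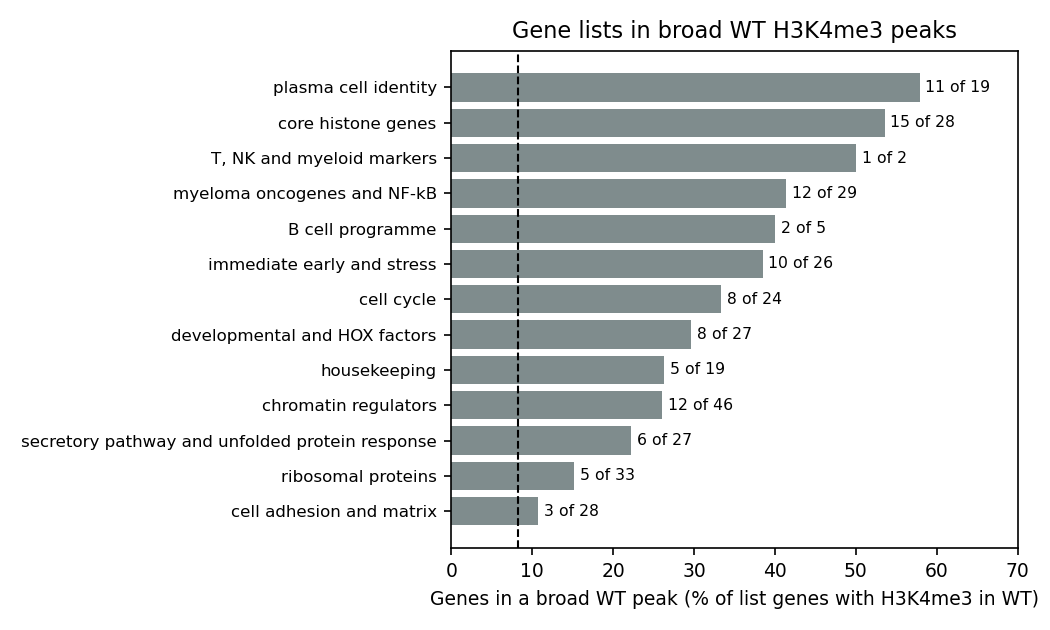
Share of the genes with H3K4me3 in WT whose start lies in a broad WT peak (x axis, %) for 13 gene lists, with the counts beside the bars and a dashed line at the 8.19% of all 8658 marked protein-coding genes. Plasma cell identity genes (11 of 19) and core histone genes (15 of 28) have the longest bars and cell adhesion and matrix genes (3 of 28) the shortest.

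Broad peaks without a match were mostly faint ones. Of the 17 without a TKO peak, 16 were among the 39 that lay under the median total signal in WT, as were 8 of the 12 without a D1240A peak and 2 of the 4 without an F1295A peak. The faint ones with a gene start and no TKO peak included ELF1, an ETS factor (11.98 kb in WT, none in TKO, 10.98 kb in D1240A and 7.78 kb in F1295A), and BMF, a pro-apoptotic gene (6.69 kb, none, 4.59 kb and 6.44 kb). The 6.99 kb WT peak at MC1R and TUBB3 had no match in any of the other 3 lists and stood at the 4.96 percentile in WT. FGFR3, the receptor gene near NSD2 on chromosome 4, had 6.43 kb in WT at the 2.49 percentile, no peak in TKO or D1240A and 11.2 kb in F1295A. The exception in TKO was ZNF687, a zinc finger gene, whose WT peak of 6.68 kb stood at the 97.7 percentile and whose nearest TKO peak was 22.4 kb away.

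The strong broad peaks that were missing in a mutant lay on chromosome 1. A 12 Mb interval of its long arm, set apart in an earlier look at these data, held 34 of the 587 broad peaks (5.79%), from chr1:150232524 to 161768879, and 1.65% of all WT peaks. Their median total signal percentile was 97.1 in WT, 94.6 in TKO, 97.0 in D1240A and 98.7 in F1295A, and by signal per base 85.7, 96.1, 90.0 and 85.4, against 57.5, 62.6, 63.5 and 65.9 for the other 553. More copies of the interval and more mark per copy cannot be told apart in these lists. The peak at MRPL24 and HDGF, which encodes a growth factor, had the highest total signal of the WT, TKO and F1295A lists. It was 17.0 kb in WT, 6.16 kb in TKO and 18.3 kb in F1295A, and D1240A had none there, its nearest peak lying 6.66 kb away. In TKO 2 peaks covered 54.3% of the stretch. MEF2D, a transcription factor gene, had 16.8 kb at the 99.9 percentile in WT and 7.28 kb in TKO, and no peak in D1240A or F1295A, whose nearest peaks were both 28.3 kb away. EFNA3, an ephrin gene, had 10.5 kb in WT and 3.01 kb in TKO and no peak in D1240A (nearest 22.7 kb) or F1295A (22.1 kb). MCL1, the survival factor of plasma cells, was wider instead, with 8.58 kb in WT, 5.60 kb in TKO, 6.81 kb in D1240A and 33.2 kb in F1295A, where 1 peak joined it to a second broad WT peak inside ADAMTSL4. Without this interval the shares at 6 kb were 32.7% in TKO, 74.0% in D1240A and 88.1% in F1295A.

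A matching peak at least 1.5 times wider than in WT was found at 0 of the 587 in TKO, 7 in D1240A (1.19%) and 38 in F1295A (6.47%), and 7 of those 38 lay in the chromosome 1 interval. Over all WT peaks the shares were higher, at 0.0369%, 2.75% and 9.39%. In F1295A 3 peaks each joined 2 broad WT peaks: MCL1 with the inside of ADAMTSL4, PBXIP1 and PYGO2 with SHC1 and CKS1B (24.5 kb), and AGAP2 and TSPAN31 with CDK4 and MARCHF9 (13.7 kb). Outside the interval, RPS2 and NDUFB10 had 8.24 kb in WT and 21.2 kb in F1295A, and ARHGDIA 8.11 and 16.5 kb. In D1240A the largest ratio was at SLC35B2 and NFKBIE, an inhibitor of NF-kB, with 7.10 kb in WT, 3.86 kb in TKO, 14.3 kb in D1240A and 14.9 kb in F1295A.

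H3K27me3, the mark of Polycomb repressive complex 2 at silent genes, was rare on broad H3K4me3 peaks. It shared at least 1 base with 19 of the 587 in WT (3.24%, exact interval 1.96 to 5.01%; all WT peaks 1.94%), 16 in TKO (2.73%, 1.57 to 4.39%; 2.04%), 9 in D1240A (1.53%, 0.703 to 2.89%; 0.848%) and 9 in F1295A (1.53%, 0.703 to 2.89%; 0.971%). These shares were higher than those of all WT peaks in every form, but longer peaks have more bases to share. Of the bases of broad peaks, H3K27me3 covered 1.65% in WT, 1.415% in TKO, 0.712% in D1240A and 0.885% in F1295A. All WT peaks gave 1.38%, 1.399%, 0.585% and 0.704%, so the sets lay closer by bases than by peaks. The chromosome 1 interval held 5, 5, 3 and 4 of the broad peaks with H3K27me3 in WT, TKO, D1240A and F1295A. Without it the shares of peaks were 2.53%, 1.99%, 1.08% and 0.904%. In all, 22 of the 587 (3.75%) had H3K27me3 in at least 1 form, against 2.79% of all WT peaks, and 5 had it in all 4. FGFR3 was marked over 6.43 kb of its broad peak in WT, 5.41 kb in TKO, 6.43 kb in D1240A and 5.41 kb in F1295A, so both marks lay on the same stretch in WT and F1295A. EFNA3 had 9.23 kb of H3K27me3 in WT and 9.28 kb in TKO, and neither mark in the mutants. At BCAN-AS2, an antisense RNA gene, H3K27me3 covered the 9.10 kb of the broad peak in TKO and D1240A, and none was found in WT or F1295A. The stretch of SHMT2, COXFA4L2 and STAC3 had 10.9 kb of H3K27me3 in F1295A alone beside 19.5 kb of H3K4me3. At MYC the overlap was 4.63 kb in WT and 4.16 kb in TKO, and none in the mutants. The H3K27me3 lists themselves covered 55.7 Mb in WT, 66.6 Mb in TKO, 32.0 Mb in D1240A and 38.8 Mb in F1295A, and the part of that in these counts was not tested. In a bulk sample, both marks on 1 nucleosome and the marks on different alleles or cells cannot be told apart.

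The extra length of a broad peak lay mostly inside the gene. For 192 broad peaks with a start of a single gene on a known strand, the median reach was 1985 bp before the start (exact interval 1810 to 2240) and 5231.5 bp after it (4890 to 5455). For 3489 narrower peaks the medians were 1090 bp (1071 to 1114) and 1901 bp (1864 to 1927). The share of bases after the start was 70.1% in broad and 63.6% in narrower peaks, and the site of highest signal lay a median 499.75 bp into the gene against 192.5 bp. In TKO the reach was shorter on both sides: at 5 kb into the gene 55.7% of the 192 had a peak in WT, 22.4% in TKO, 43.8% in D1240A and 54.2% in F1295A. At 2 kb before the start the shares were 50%, 25.5%, 47.9% and 54.7%, and at the start 100%, 94.8%, 96.9% and 99.0%, in the same order. The 100% in WT follows from the choice of peaks. For the narrower peaks the start was covered in 87.2% in TKO, 93.1% in D1240A and 97.9% in F1295A. Their reach was shorter in TKO too, with 23.7% against 43.7% in WT at 2 kb into the gene. The shorter peaks of TKO thus mostly still held the start.

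**Figure D5:**
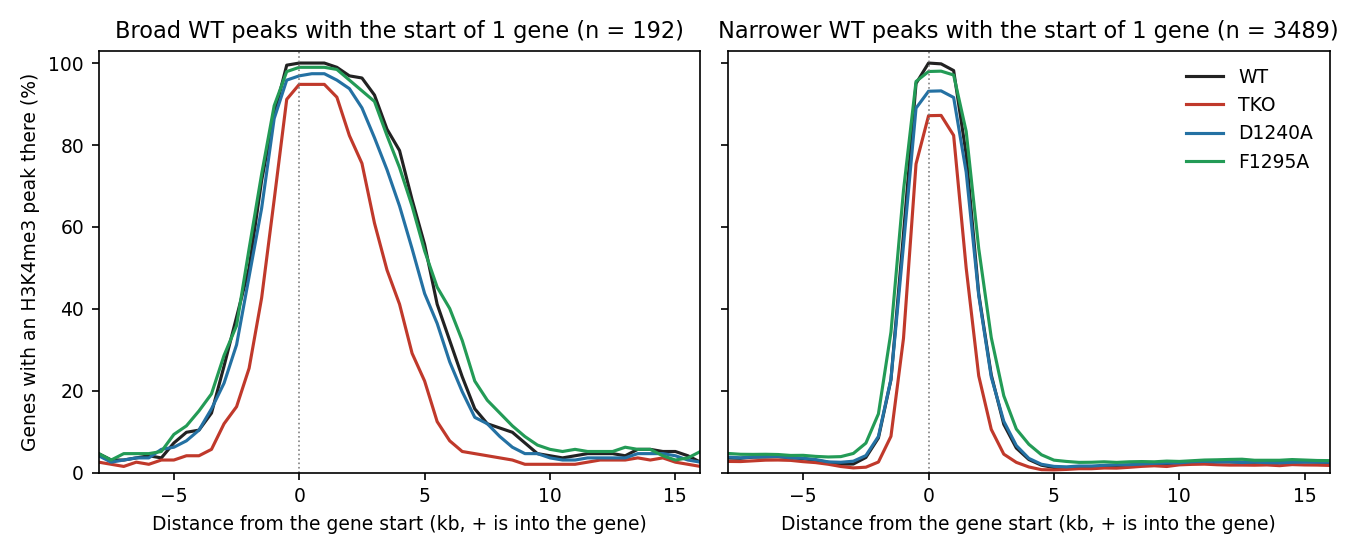
Share of genes with an H3K4me3 peak (y axis, %) by distance from the gene start (x axis, kb, positive into the gene) in the 4 lists, for 192 broad (left) and 3489 narrower WT peaks (right) with a start of a single gene. At 5 kb into the gene the broad group has 55.7% in WT and 22.4% in TKO, while at the start it has 100% in WT and 94.8% in TKO.

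By base composition, broad promoters looked like other marked promoters. The 817 promoter windows (250 bases before to 50 after a start) in broad peaks had a median of 27 CG dinucleotides and 66.0% G and C, the 8741 windows in narrower peaks 28 and 66.7%, and the 12573 windows without a WT peak 10 and 57.7%. The ratio of observed to expected CG was 0.853, 0.867 and 0.454. Windows in peaks that stayed at 6 kb in TKO had a median of 25 CG, and the other windows in broad peaks 27. Of 7 words searched on both strands, TATAAA was in 9.30% of broad windows (exact interval 7.40 to 11.5%) and 4.04% of narrower ones (3.64 to 4.47%), with 9.46% of all windows. The octamer ATGCAAAT, known as the binding word of POU factors, was in 2.94% (1.89 to 4.34%) and 1.17% (0.952 to 1.41%), with 1.65% of all windows. Histone genes, which are known to carry both words, gave 13 of the 76 TATAAA windows and 9 of the 24 octamer windows in broad peaks. Without them the broad and narrower shares were 7.88% (6.10 to 9.96%) and 3.97% (3.57 to 4.40%) for TATAAA, and 1.88% (1.05 to 3.07%) and 1.12% (0.913 to 1.37%) for the octamer, whose intervals then overlapped. CCAAT was in 41.1% and 35.2% (34.6% of all), GGGCGG in 74.54% and 75.04% (56.3% of all), the E-box CACGTG in 9.91% and 10.97% (8.34% of all), the ETS word GGAAGTG in 13.95% and 16.23% (12.4% of all) and the core word of the interferon-stimulated response element in 2.94% and 2.38% (3.17% of all). Several windows can belong to 1 gene and overlap, so these intervals are too narrow. A match is a word in the sequence and not a bound site.

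Hairpins of microRNAs, short RNAs that repress messages through bases 2 to 8 (the seed, in capitals below), lay in 38 of the broad peaks. Of 1560 listed hairpins 160 were in a WT peak and 45 in a broad one. The share of all WT peaks with a hairpin was not counted. Broad peaks held 15.7% of the covered bases of the WT list, and a longer peak has more room for a hairpin. These counts therefore do not set broad peaks apart. MIR142, known for its high level in blood cells, lay in a broad peak at TSPOAP1 of 14.5 kb in WT, 12.9 kb in TKO, 15.996 kb in D1240A and 16.007 kb in F1295A. MIR15B and MIR16-2, whose products share 1 seed and are known to target cell cycle and survival genes, lay in the peak of IFT80 and SMC4 (7.76 kb, 6.70 kb, 7.21 kb and 7.97 kb). MIR193B and MIR365A lay in 1 peak without a protein-coding start (10.97 kb, 5.40 kb, 10.93 kb and 12.25 kb). The mature sequences are from RefSeq.
hsa-miR-142-5p: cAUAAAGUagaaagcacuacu
hsa-miR-142-3p: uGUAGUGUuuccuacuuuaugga
hsa-miR-15b-5p: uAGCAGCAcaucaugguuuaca
hsa-miR-16-5p: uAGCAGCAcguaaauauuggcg
hsa-miR-193b-3p: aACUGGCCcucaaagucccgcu
hsa-miR-365a-3p: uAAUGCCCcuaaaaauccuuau
Peaks show the mark on chromatin around the hairpin and do not measure the level of the microRNA.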

How the data were processed

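H3K4me3 and H3K27me3 were measured by ChIPmentation, and the authors deposited 1 list of SEACR peaks for each form and mark. Per the labels, the 2 H3K27me3 samples of a form share 1 list. The submitters' processing notes name Trimmomatic 0.36, FastQC 0.11.4, Bowtie2 2.4.5, SEACR 1.3 and GRCh38. Caller mode, control and threshold: not given in the sources used here. Every deposited peak carries its summed and its highest signal (coverage) from the authors' caller, with no stated scaling. SEACR joins neighbouring bases with signal into blocks, so deeper libraries can give wider peaks. Read totals are not in the lists, so depth is unknown. The IgG samples were not analysed here.

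Peaks were overlapped (at least 1 bp) with pandas 2.3.3, numpy 2.4.6 and scipy 1.17.1 under Python 3.11.15, and drawn with matplotlib 3.10.9. The peak sharing most bases with a broad WT peak gave its width and percentile rank in another list, and all overlapping peaks gave the covered bases. Shares have Clopper-Pearson and medians order-statistic 95% intervals, which cover counting error only. Neighbouring peaks are not independent. Starts came from RefSeq tables of GRCh38.p14: 15811 of 19970 protein-coding genes had a listed start, and either record end stood in for the other 4159, which can be the end away from the promoter. Coordinates count from 1.

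The broad peaks, the 13 gene lists and the interval on chromosome 1 were chosen with earlier results of these data known. Genes were named by a rule: at most 4 broad peaks per gene list by width, the 10 widest, for each form the 5 least covered and the 5 relatively widest, those without a peak, the 5 with most H3K27me3 bases and 3 on each side of the limit. Other list genes given with values, and genes singled out in text, were picked after their values were seen. The overlap steps were run on a list made by keeping, halving, splitting or dropping WT peaks. They returned the known outcome for 587 of 587 broad peaks, dropped ones included. This checks the overlap arithmetic and not the calling of broad peaks.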

Additional observations from a re-analysis of the deposited data

Results flagged for a closer look

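At 5 broad WT peaks the mutants went opposite ways: the matching peak was at least 1.5 times wider than WT in F1295A and at least 1.5 times narrower, or absent, in D1240A. These differences were not tested, since each form has 1 sample. The pattern was not counted over all WT peaks. Of all WT peaks 9.39% had an F1295A peak at least 1.5 times wider, and 7.79% were covered at least 1.5 times less in D1240A. The peak at UFC1, USP21 and PPOX was 11.6 kb in WT, 5.79 kb in D1240A and 19.2 kb in F1295A. In D1240A this stretch held 2 peaks that covered 71.8% of it, so by covered bases it was under 1.5 times shorter. ARHGDIA had 8.11 kb in WT, 4.46 kb in D1240A and 16.5 kb in F1295A. The peak inside ADAMTSL4 was 7.47 kb in WT, absent in D1240A and part of the 33.2 kb peak of MCL1 in F1295A. AKT1, a survival kinase gene, had 6.74 kb in WT, 4.44 kb in D1240A and 10.8 kb in F1295A. FGFR3 had 6.43 kb in WT, no peak in D1240A and 11.2 kb in F1295A. In TKO the first 4 had 4.29 kb, 4.21 kb, 4.01 kb and 2.57 kb, and FGFR3 had no peak.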

How the results depend on the processing

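Over 22 results, 81 alternative values stayed close to the value given and 24 moved. For shares and medians, close meant within the counting interval of the value given. The counts of broad peaks have no such interval, and there it meant within 1.5 times. For the share at 6 kb, the order of the forms changed over equal numbers of widest peaks. It was reversed when peaks were chosen in the other form and followed in WT. That gave 97.9% for TKO, 70.7% for D1240A and 50.9% for F1295A. By signal per base, the percentile in TKO (65.4) was just above that in D1240A (65.2). The share of broad peaks still at least 6 kb wide moved most. In TKO it was 17.7% with 8 kb in place of 6 kb in every list, so for the share still at least 8 kb wide, 49.4% with peaks joined within 5 kb, 62.5% over equal numbers of widest peaks and 97.9% when chosen in TKO and followed in WT. In D1240A it was 68.5% with 8 kb in every list and 80.2% with joining. In F1295A it was 90.9% with joining, 64.1% over equal numbers and 50.9% when chosen in F1295A. Coverage in TKO was 74.8% with joining and 67.0% for WT peaks of at least 8 kb. The signal percentile in TKO, D1240A and F1295A was 75.02, 76.8 and 80.0 by highest signal, 65.4, 65.2 and 67.6 by signal per base, 85.5, 86.9 and 88.3 for WT peaks of at least 5 kb, and 92.8, 94.8 and 95.7 at 8 kb. H3K27me3 overlap in F1295A was 2.96% at 8 kb. Leaving out the chromosome 1 interval took H3K27me3 overlap in F1295A from 1.53% to 0.904%, within the wide interval of 9 peaks, and moved no other result by over 1.5 times. Sharing at least 500 bp, equal peak numbers and joining within 1 kb moved no result they were run on. Equal peak numbers for the pairs of forms, and equal peak numbers and joining for the counts of broad peaks, were chosen after seeing the data. No paired analysis was possible because each form has 1 H3K4me3 sample and its 2 H3K27me3 samples share 1 list, so no replicate could be left out either. Unknown depth limits every width.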
